A study of Mus musculus with 6 samples.

Results

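10 genes of the cyclic GMP pathway were followed in bulk RNA sequencing of mouse thoracic aorta. They encode the nitric oxide receptor (Gucy1a1, Gucy1b1), the natriuretic peptide receptors (Npr1, Npr2, Npr3), the kinase that cGMP activates (Prkg1) and 4 enzymes that break cyclic nucleotides down (Pde5a, Pde3a, Pde1a, Pde1c). They were taken by Ensembl identifier from the 52636 genes of the table, and all 10 were found and tested. The WT group comprised 4 libraries from untreated C57BL/6J mice. The KO group comprised 2 libraries from mice homozygous for floxed alleles of both receptor genes of transforming growth factor-beta (Tgfbr1f/f.Tgfbr2f/f), with tamoxifen-inducible Cre (Myh11-CreERT2) and a reporter of Cre activity (mT/mG). These mice received 5 daily intraperitoneal doses of 2 mg tamoxifen at 11 weeks, and all aortas came from mice aged 12 weeks. The Myh11 promoter limits Cre to smooth muscle cells, and the transgene lies on the Y chromosome, so only males carried it. WT mice lacked the floxed alleles, Cre, the reporter and tamoxifen, and the effects of these differences cannot be told apart. The study counts as many mice as there are libraries in each group, so the spread between libraries was taken as that between mice.

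Cyclic GMP is the second messenger through which nitric oxide and natriuretic peptides relax vascular smooth muscle. Nitric oxide from the endothelium binds soluble guanylyl cyclase, a dimer of an alpha and a beta subunit, whereas the natriuretic peptides bind receptors that are themselves guanylyl cyclases. The cGMP made by either route activates cGMP-dependent protein kinase, which lowers cytosolic calcium and myosin phosphorylation. Phosphodiesterases end the signal, and a clearance receptor removes the peptides.

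The 3 natriuretic peptide receptor genes lay on 3 chromosomes, and their counts differed in direction between the groups, as given below. Their promoters are shown so that the letters can be set against the counts. Each line holds the 150 bases before the RefSeq start site, on the strand of the gene, in GRCm38.p6. Npr1 occupied chr3:90465867-90466016 on the minus strand, Npr2 chr4:43631785-43631934 on the plus strand and Npr3 chr15:11907372-11907521 on the minus strand. Capitals mark matches to GGGCGG or its reverse complement CCGCCC, the core of the GC box.
Npr1: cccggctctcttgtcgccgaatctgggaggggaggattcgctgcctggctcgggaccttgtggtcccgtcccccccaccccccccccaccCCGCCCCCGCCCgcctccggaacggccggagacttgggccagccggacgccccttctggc
Npr2: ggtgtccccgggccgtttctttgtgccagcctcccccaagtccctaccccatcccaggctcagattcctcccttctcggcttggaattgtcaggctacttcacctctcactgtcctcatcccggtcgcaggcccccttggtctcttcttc
Npr3: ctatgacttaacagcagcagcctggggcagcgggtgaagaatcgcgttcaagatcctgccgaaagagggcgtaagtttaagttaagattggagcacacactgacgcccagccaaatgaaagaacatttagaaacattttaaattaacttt
The Npr1 window held 2 matches next to each other and 75.3% G or C, and the windows of Npr2 and Npr3 held no match at 60.7% and 44.0% G or C. A GC box core occurred in 28.6% of all 32851 such windows. CAGAC and its reverse complement GTCTG, the letters of the Smad binding element, occurred in 27.7% of windows and in none of these 3. The CArG box, the motif bound by serum response factor, occurred in 0.916% of windows and also in none of the 3. A match or its absence here describes letters only.

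Total counts ran from 19650983 to 28860598 per library. Normalised counts below are counts divided by DESeq2 size factors. Tgfbr1 was counted at 3858 to 5420 in WT libraries and at 5780 and 4568 in KO-1 and KO-2. Tgfbr2 was counted at 5327 to 7042 in WT and at 5784 and 5937 in KO. A count over the whole gene still includes reads from exons that Cre leaves in place, so these values do not check the labels. Smooth muscle markers summed to 910539 to 1068950 in WT and to 870557 and 1024220 in KO, and none of the 8 passed an adjusted p of 0.05 in DESeq2 or edgeR, with 4 under an unadjusted 0.05 in DESeq2. The KO libraries stood apart in other markers. KO-1 held cardiac muscle markers at 28831 in sum against 3095 to 4441 in WT, with KO-2 at 4554. KO-2 held brown adipocyte markers at 14268 against 1174 to 1605 in WT, with KO-1 at 4111, and mitochondrial genes at 11.7% of counts against 2.62% to 4.44% in the others. Among defining markers, Ucp1 was at 0 in WT-4 and Myl2 at 0 in each WT library. The part of these cells in the results below was not tested. For the members and the pathway genes past the adjusted p, values without 1 KO library are given where that library decides a result. In bulk tissue, fewer cells of a type and less RNA per cell cannot be told apart.

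Npr3, Pde5a and Gucy1a1 were higher in KO aortas at an adjusted p under 0.05 (DESeq2, Benjamini-Hochberg), 3 of 10 members where 5.71% of the 17070 genes tested were. Npr3 alone also exceeded a 2-fold change, the study's second threshold, which with the adjusted p 3.54% of genes met in that direction and 5.64% in either. No member passed in the lower direction, where 4.69% of genes passed the adjusted p and 2.1% both thresholds, and none did so in edgeR, with Npr1 alone under an unadjusted 0.05 in DESeq2. Counts of 7 members were higher in both KO libraries than in any WT library, against 17.9% of genes. Counts of 2 members, Npr1 and Npr2, were lower in both, against 16.4% of genes, which made 9 of 10 members outside the WT range against 34.3% of genes. Pde3a overlapped. The log2 fold change was above 0 for 8 members, against 50.9% of genes, and its median was 0.36, against 0.01 over all genes. The members, and the gene lists below, were chosen with earlier results of these data known. Each member had a WT mean of at least 218, whereas the genes tested included some with fewer counts. The shares are therefore a description and carry no test. Each member's value kept its direction but was smaller in size with a GC trend removed. It was then 1.45 for Npr3, 0.59 for Pde5a, 0.24 for Gucy1b1 and 0.18 for Pde3a. For Pde1a it was 0.04, for Pde1c 0.13, for Npr1 -0.34 and for Npr2 -0.15.

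**Figure D1:**
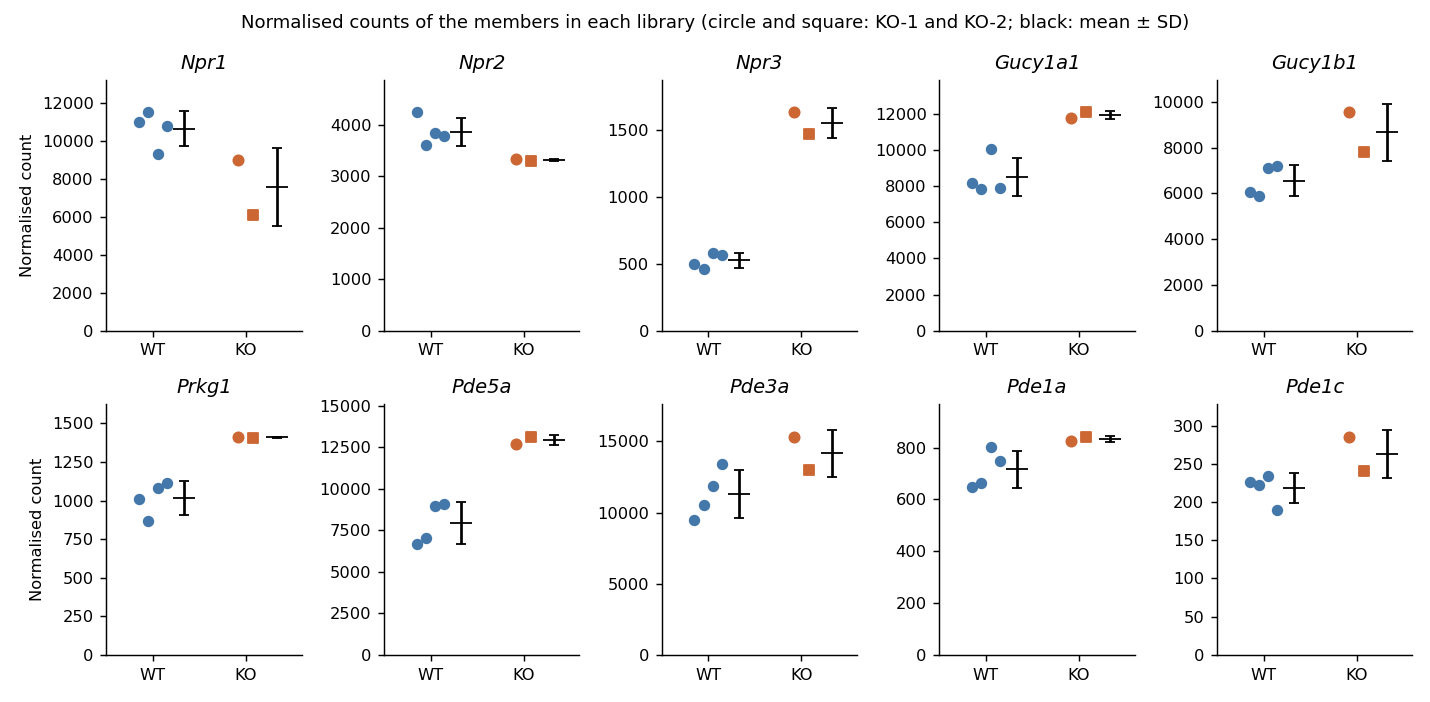
Normalised counts of each member by library (vertical axes, each from 0) in 4 WT and 2 KO libraries, with the mean and SD of each group in black. Both KO points lie above the WT points for 7 members and below them for Npr1 and Npr2; for Pde3a, KO-1 lies above the WT points and KO-2 among them.

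**Figure D2:**
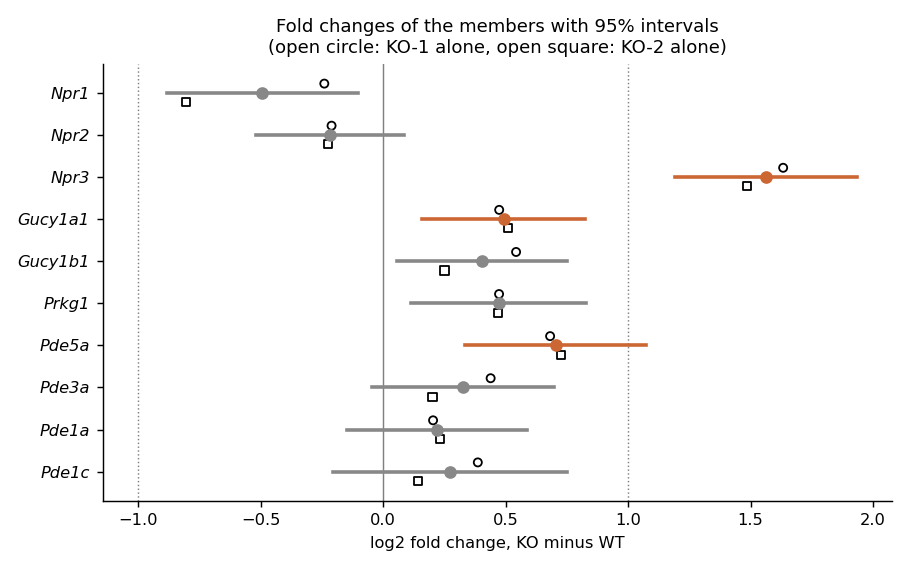
Log2 fold change of each member in DESeq2, KO minus WT (horizontal axis), with its 95% interval and the change of KO-1 alone and KO-2 alone from the WT mean; dotted lines mark a 2-fold change and orange an adjusted p under 0.05. Npr3 is the only member whose whole interval lies beyond 2-fold, and the 2 KO libraries differ most for Npr1.

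Npr3, the clearance receptor that binds natriuretic peptides without making cGMP, changed most (ENSMUSG00000022206.6, chr15:11839896-11907287, minus strand). The WT libraries, given here and below in the order WT-1 to WT-4, had normalised counts of 499, 462, 580 and 566, and KO-1 and KO-2 had 1635 and 1475. Both KO libraries thus held more than double the highest WT count. The KO mean was 2.95-fold the WT mean (1555 ± 113, SD, n = 2, against 527 ± 55.7, n = 4). The log2 fold change was 1.56 (SE 0.19, 95% interval 1.19 to 1.93), with an adjusted p of 5.59e-14 in DESeq2 and 0.00261 in edgeR. It was 1.49 without KO-1 and 1.65 without KO-2, and tested against a null of 2-fold the DESeq2 adjusted p was 0.346. Endothelial markers, the products of another cell type that carries natriuretic peptide receptors, summed to 14192 to 24573 in WT and to 33345 and 32688 in KO, and 4 of the 9 were higher at an adjusted p under 0.05. The list was not uniform, since 2 of its genes, Erg and Egfl7, were lower in both KO libraries than in any WT library. Sums of fibroblast, macrophage, mesothelial, brown adipocyte, cardiac muscle, red blood cell and lymphocyte markers were also higher in both KO libraries than in any WT library. Those of smooth muscle, white adipocyte and Schwann cell markers were not. The part of endothelial or of these other cells in the Npr3 counts was not tested.

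Npr1, the guanylyl cyclase receptor for atrial and brain natriuretic peptide, was lower in both KO libraries without passing the threshold (ENSMUSG00000027931.12, chr3:90450591-90465866, minus strand). Counts were 10999.5, 11498, 9310.0 and 10788 in WT and 9012 and 6099 in KO. KO-1 lay just below the lowest WT library and KO-2 well below it. The log2 fold change was -0.49 (SE 0.20, 95% interval -0.88 to -0.11), with an adjusted p of 0.0941 in DESeq2 and 0.132 in edgeR. KO-2 decided its size: the value was -0.80 (adjusted p 0.000203) without KO-1 and -0.23 (adjusted p 0.548) without KO-2, the library with the raised mitochondrial share.

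Npr2, the guanylyl cyclase receptor for C-type natriuretic peptide, differed little (ENSMUSG00000028469.15, chr4:43631935-43651244, plus strand). Counts were 4238, 3604, 3830 and 3775 in WT and 3336 and 3300 in KO. Both KO libraries were below the WT range, by less than the WT libraries differed among themselves. DESeq2 gave a log2 fold change of -0.22 (SE 0.15, 95% interval -0.52 to 0.08; adjusted p 0.436).

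Per kilobase of exon, the count of Npr3 was 0.0205 to 0.0317 of that of Npr1 in WT libraries, and 0.0924 and 0.123 in KO-1 and KO-2. Against Npr2 it was 0.0585 to 0.0753 in WT, and 0.244 and 0.222 in KO. Both ratios were higher in KO than in any WT library, but clearance receptor transcripts stayed the least abundant of the 3 receptors in all 6 libraries. The ratio of Npr1 to Npr2 was 2.37 to 3.11 in WT, with KO-1 inside that range at 2.64 and KO-2 below it at 1.80. These pairs were chosen with the counts known, among 7 ratios, and carry no test.

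Of 7 genes for the peptides and their processing, 4 could be tested and 1, Corin, was called higher, where 3.54% of all genes were. Corin, the protease that cuts the atrial natriuretic peptide precursor, had counts of 25.3, 13.5, 72.9 and 23.0 in WT and 401 and 363 in KO. The 2 KO libraries were alike and far above each WT library (log2 fold change 3.51, SE 0.51, DESeq2 adjusted p 1.2e-09), and they stayed apart without KO-1 (3.43) or without KO-2 (3.59). WT-3 held the most Corin in that group, and without it the value was 4.23. The gene of its cardiac substrate, Nppa, had counts of 0, 0, 0 and 21.9 in WT and 249 and 8.60 in KO (log2 fold change 4.55, SE 3.73, adjusted p 0.523; 0.65 without KO-1 and 9.46 without WT-4). The library with the highest Nppa count, KO-1, was also the library with the cardiac markers. Nppb was at 0 in all libraries, and Nppc, the C-type peptide of endothelium, had 3.13 in WT-4 and 0 in the other 5 libraries.

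On the nitric oxide side, both subunits of the soluble cyclase were higher in KO-1 and KO-2 than in any WT library. Gucy1a1, the alpha subunit, had counts of 8189, 7878, 10051 and 7898 in WT and 11807 and 12097 in KO (ENSMUSG00000033910.13, chr3:82092427-82145789, minus strand). WT-3 stood above the other WT libraries and still below both KO libraries. The KO mean was 1.41-fold the WT mean (log2 fold change 0.49, SE 0.17, 95% interval 0.16 to 0.82; DESeq2 adjusted p 0.0399). The call was narrow: the adjusted p was 0.0843 in edgeR, and it ranged from 0.00105 without WT-3 to 0.142 without KO-2 when single libraries were left out, with 0.0636 without KO-1, 0.0888 without WT-1, 0.127 without WT-2 and 0.0851 without WT-4. With a GC trend removed the log2 fold change was 0.35 (adjusted p 0.137).

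Gucy1b1, the haem-binding beta subunit, lies 17737 bases from Gucy1a1 on the same strand (ENSMUSG00000028005.13, chr3:82032006-82074689). Its counts were 6036, 5883, 7086 and 7173 in WT and 9532 and 7783 in KO. KO-1 was clearly above the WT libraries and KO-2 slightly. This gave a log2 fold change of 0.40 (SE 0.18, 95% interval 0.06 to 0.75), with an adjusted p of 0.136 in DESeq2 and 0.149 in edgeR. Per length, the ratio of alpha to beta subunit was 0.621 to 0.799 in WT and 0.698 and 0.876 in KO, so KO-1 fell inside the WT range and KO-2 above it.

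Of 22 genes for nitric oxide synthesis, its cofactor and its substrate, 18 could be tested (median log2 fold change 0.11). Of these, 2 rose, where 5.71% of all genes did. None fell in DESeq2 or edgeR, where 4.69% of all genes fell in DESeq2. Of those with lower counts, 0 had an unadjusted p under 0.05 in DESeq2. Ass1, which makes the arginine precursor argininosuccinate, had counts of 258, 352, 346 and 329 in WT and 562 and 674 in KO (log2 fold change 0.94, SE 0.23, DESeq2 adjusted p 0.000915). Ddah1, which degrades the synthase inhibitor dimethylarginine, had counts of 7.69, 20.7, 29.0 and 36.5 in WT and 84.2 and 157 in KO (2.36, SE 0.57, adjusted p 0.00106; 1.85 and 0.191 without KO-2). Both genes had all KO libraries above all WT libraries, Ddah1 at low counts.

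Nos3, the endothelial synthase, did not pass. Its counts were 1121, 1316, 1237 and 1445 in WT and 1964 and 1591 in KO (log2 fold change 0.47, SE 0.19, DESeq2 adjusted p 0.0905). Both KO libraries were higher, as were the summed endothelial markers given above, though not each gene of that list. With a GC trend removed the log2 fold change was 0.72 (adjusted p 0.00813), and without KO-2 it was 0.63 (adjusted p 0.0415). Without KO-1 it was 0.32 (adjusted p 0.351). The other guanylyl cyclase genes and the haem reductase Cyb5r3 added no call in DESeq2 or edgeR, with 2 of 8 testable. Cyb5r3 had counts of 13808 to 15833 in WT and 9730 and 15105 in KO, so KO-1 alone lay below the WT range. Its log2 fold change was -0.27 (SE 0.20, DESeq2 adjusted p 0.459) and ran from -0.61 to 0.01 over the 16 alternatives.

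Prkg1 encodes the cGMP-dependent protein kinase of smooth muscle (ENSMUSG00000052920.14, chr19:30564489-31765033, minus strand). Counts were 1009, 868, 1081 and 1115 in WT and 1414 and 1409 in KO. The KO libraries were almost equal and above every WT library. The log2 fold change was 0.47 (SE 0.18, 95% interval 0.11 to 0.83), with an adjusted p of 0.0771 in DESeq2 and 0.105 in edgeR. It passed in 1 of 16 alternatives, a scaling to the 8 smooth muscle markers chosen after seeing the data (0.51, adjusted p 0.0497), and with a GC trend removed it was 0.30 (adjusted p 0.245).

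Among 17 testable partners and targets of the kinase, 1 rose and 2 fell, where 5.71% and 4.69% of all genes did. The median log2 fold change was 0.00. Fhod1, a formin, had counts of 925, 850, 711 and 764 in WT and 532 and 501 in KO (-0.65, SE 0.20, DESeq2 adjusted p 0.0136, edgeR 0.0477). Ppp1r14a, the inhibitor of myosin phosphatase called CPI-17, had 6560, 5787, 5460 and 4356 in WT and 3157 and 4179 in KO (-0.60, SE 0.21, DESeq2 adjusted p 0.0463, edgeR 0.107). For both genes every KO library was below every WT library, for Ppp1r14a with KO-2 close to WT-4. Leaving out single libraries took the adjusted p of Fhod1 to 0.1002 (KO-2) and 0.0527 (WT-2), and that of Ppp1r14a to 0.276 (KO-1), 0.154 (WT-1), 0.156 (WT-2) and 0.0926 (WT-3). With a GC trend removed the log2 fold change was -0.41 for Fhod1 (adjusted p 0.0954) and -0.30 for Ppp1r14a (0.364). Exons of Fhod1 overlap Tmem208 on the opposite strand, and whether counting used strand is not given in the sources used here.

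Pln, phospholamban, the brake on the calcium pump, was the target that rose, and KO-1 decided it. Its exons overlap Cep85l on the opposite strand, and strand use in counting is not given. Cep85l had raw counts of 524, 635, 701 and 597 in WT and 1009 and 540 in KO. These raw counts are not scaled for depth, and size factors were 0.910 to 1.11 in WT, 1.32 in KO-1 and 0.814 in KO-2. Counts of Pln were 141, 153, 231 and 219 in WT and 1346 and 300 in KO (2.15, SE 0.44, DESeq2 adjusted p 6.23e-05). Without KO-1, the library with the cardiac markers, the log2 fold change was 0.69 (adjusted p 0.25), without KO-2 it was 2.87, and without WT-1 the adjusted p was 0.0865. Mrvi1, now named Irag1, which ties the kinase to the inositol trisphosphate receptor, had counts of 12620 to 15385 in WT and 13619 and 14085 in KO (-0.02, SE 0.16, adjusted p 0.967). The second kinase gene, Prkg2, had counts of 16.2 to 34.1 in WT and 22.8 and 6.15 in KO (-0.60, SE 0.76, adjusted p 0.718). Both genes had overlapping groups.

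Pde5a, the cGMP-specific phosphodiesterase that sildenafil inhibits, was the second most changed member (ENSMUSG00000053965.10, chr3:122728947-122859374, plus strand). Counts were 6653, 7068, 8984 and 9065 in WT and 12738 and 13142 in KO. WT-1 and WT-2 lay below WT-3 and WT-4, and both KO libraries were above all of them. The KO mean was 1.63-fold the WT mean (12940 ± 286, SD, n = 2, against 7943 ± 1262, n = 4). The log2 fold change was 0.70 (SE 0.19, 95% interval 0.33 to 1.07), with an adjusted p of 0.00392 in DESeq2 and 0.0443 in edgeR. It was 0.73 without KO-1 and 0.69 without KO-2.

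Pde3a, the dual enzyme that cGMP inhibits and that degrades cAMP, was spread over a wide WT range (ENSMUSG00000041741.10, chr6:141249269-141507448, plus strand). Counts were 9460 (WT-1), 10512 (WT-2), 11851 (WT-3) and 13389 (WT-4), against 15318 and 12992 in KO. KO-2 fell below WT-4, so the groups overlapped. DESeq2 gave a log2 fold change of 0.32 (SE 0.19, 95% interval -0.05 to 0.70; adjusted p 0.315). An antisense transcript, Gm28523, overlaps its exons and had 93 to 156 raw counts.

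The calcium-activated enzymes Pde1a and Pde1c did not pass the test. Pde1a had counts of 649, 665, 803 and 748 in WT and 825 and 842 in KO (ENSMUSG00000059173.19, chr2:79834453-80129458, minus strand; log2 fold change 0.22, SE 0.19, 95% interval -0.15 to 0.59, DESeq2 adjusted p 0.547). Pde1c had 226, 222, 235 and 190.0 in WT and 285 and 241 in KO (ENSMUSG00000004347.16, chr6:56069804-56569103, minus strand; 0.27, SE 0.24, 95% interval -0.20 to 0.75, adjusted p 0.566). For both genes the 2 KO libraries were above every WT library, for Pde1c with KO-2 close to WT-3, and the intervals include 0 as well as moderate rises.

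Of 21 other phosphodiesterase genes, 14 could be tested and 3 were called higher, where 3.54% of all genes were (median log2 fold change 0.35). None fell in DESeq2 or edgeR, with Pde6d under an unadjusted 0.05 in DESeq2. Pde3b, the relative of Pde3a that is abundant in adipocytes, had counts of 336, 390, 411 and 436 in WT and 1107 and 1387 in KO (1.66, SE 0.21, DESeq2 adjusted p 2.93e-13). Pde8a, a cAMP-specific enzyme, had 159, 146, 175 and 220 in WT and 395 and 546 in KO (1.42, SE 0.27, adjusted p 9.59e-06). Both KO libraries were well above WT in each. Pde7b, also cAMP-specific, had 57.1, 82.6, 84.9 and 98.2 in WT and 178 and 154 in KO (1.04, SE 0.34, adjusted p 0.0259, edgeR 0.0579), and its adjusted p was 0.168 without KO-1, 0.0899 without KO-2 and 0.0675 without WT-2. White adipocyte markers summed to 13434 to 15154 in WT and to 13198 and 26007 in KO-1 and KO-2. Brown adipocyte markers summed to 1174 to 1605 in WT and to 4111 and 14268 in KO-1 and KO-2. For Pde3b the log2 fold change was 1.503 without KO-2, the library with more adipocyte markers. KO-1 was also above WT in the brown adipocyte sum, so leaving out KO-2 does not remove that difference. The part of adipocytes in the Pde3b counts was not tested. Pde2a, the enzyme that cGMP stimulates, was at 12.6 counts or fewer in each library. Its exons overlap those of Gm45837, a protein-coding gene on the same strand. Gm45837 had raw counts of 87, 147, 76 and 81 in WT and 313 and 246 in KO. Whether reads of Pde2a were counted under that gene was not tested, so the low Pde2a counts may not hold all its reads.

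The make-up of phosphodiesterase transcripts was described per kilobase of exon, over 25 genes. Pde3a took 29.1% to 33.8% in WT libraries and 31.8% and 28.6% in KO-1 and KO-2, and Pde5a took 26.4% to 29.6% in WT and 34.2% and 37.5% in KO. On this measure Pde3a had the largest share in all 4 WT libraries, narrowly in WT-3 (29.7% against 29.2% for Pde5a), and Pde5a in both KO libraries. Length here covers all annotated exons of a gene, so the order of close genes may depend on it. Pde3b had 1.44% to 1.57% in WT and 3.21% and 4.27% in KO, and Pde8a 1.33% to 1.75% in WT and 2.58% and 3.78% in KO. Pde6d, encoding a prenyl-binding subunit rather than an enzyme and named here after its values were seen, had 8.54% and 3.81% in KO and 10.9% to 14.7% in WT. Shares sum to a whole, so a rise in one lowers the others.

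**Figure D3:**
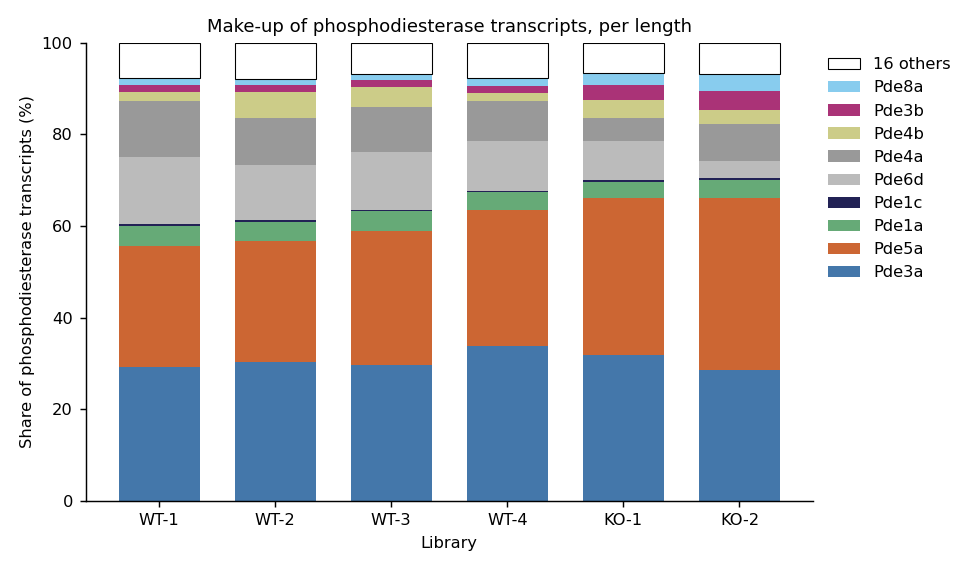
Share of the summed count per kilobase of exon of 25 phosphodiesterase genes in each library (vertical axis, %), stacked by gene. Pde5a takes 34.2% and 37.5% in the KO libraries against 26.4% to 29.6% in WT, and the 4 member genes together 70.0% and 70.4% against 60.4% to 67.7%.

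Genes of the cAMP branch and of export were followed because several of these phosphodiesterases act on both nucleotides. Of 17 genes for adenylyl cyclases and the cAMP kinase, all testable, 1 rose and 1 fell (median log2 fold change -0.04). Over all genes, 5.71% rose and 4.69% fell. Adcy5, an adenylyl cyclase, had counts of 28860, 29529, 32299 and 31214 in WT and 20021 and 14798 in KO (-0.81, SE 0.17, DESeq2 adjusted p 0.000156). Prkar2b, a regulatory subunit of the cAMP kinase, had 83.5, 104, 163 and 100.2 in WT and 360 and 1029 in KO (2.62, SE 0.40, adjusted p 6.88e-09). For Prkar2b the KO libraries differed widely from each other, and the log2 fold change was 1.69 (adjusted p 0.00248) without KO-2, which also held more adipocyte markers, and 3.19 without KO-1. Abcc4, a transporter that exports cyclic nucleotides, had 85.7, 135, 145 and 184 in WT and 248 and 310 in KO (1.02, SE 0.33, adjusted p 0.025, edgeR 0.0801), and its adjusted p was 0.0559 without KO-1, 0.286 without KO-2, 0.0928 without WT-2 and 0.057 without WT-3. Over the 7 lists, 74 of 95 genes could be tested. Of these, 9 rose and 3 fell at the adjusted p, where 10.4% of all genes did either. Both thresholds called 8, all higher, where 5.64% of all genes were called and 3.54% were called higher.

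**Figure D4:**
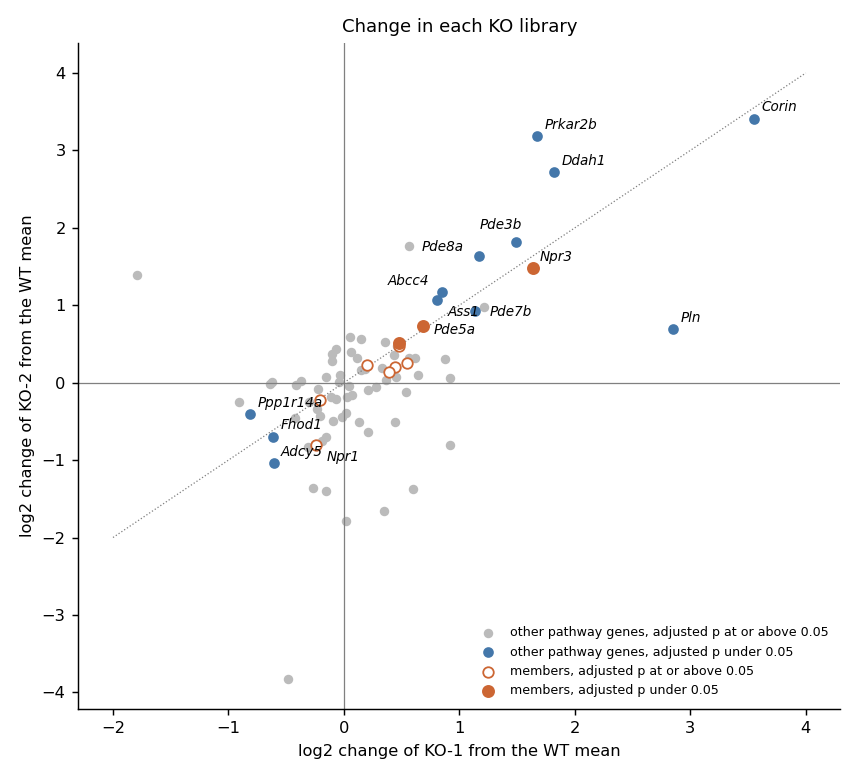
Log2 change of KO-1 (horizontal axis) and of KO-2 (vertical axis) from the WT mean for the 10 members and 73 other pathway genes, without Nppa; the dotted line marks equal change. Npr3, Pde5a, Corin and Pde3b lie near the line, and Pln, higher in KO-1, and Prkar2b, higher in KO-2, lie away from it.

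Levels of different genes were compared as normalised counts per kilobase of exon. In WT the order was Npr1 (median 2278, range 1946 to 2404), Gucy1b1 (1671, 1498 to 1827), Gucy1a1 (1154, 1131 to 1442), Pde3a (878, 743 to 1051), Npr2 (815, 772 to 908) and Pde5a (816, 677 to 922), with Npr2 ahead of Pde5a by the mean. Pde1a (118, 108 to 134), Prkg1 (96.3, 79.9 to 103), Npr3 (56.7, 49.3 to 61.8) and Pde1c (11.2, 9.47 to 11.7) followed. Neighbours in this order overlapped for Pde3a with Npr2 and for Npr2 with Pde5a, and the other 7 pairs of neighbours did not. In KO-1 and KO-2, Gucy1b1 (2427 and 1982) lay above Npr1 (1884 and 1275), and Npr3 (174 and 157) lay above Prkg1 (130.2 and 129.7) and Pde1a (137 and 140.0). Ratios of Pde5a to Gucy1b1 were 0.440 to 0.506 in WT and 0.534 and 0.674 in KO, and ratios of Pde5a to Prkg1 were 7.28 to 9.18 in WT and 9.95 and 10.3 in KO, both above the WT range. The ratio of Pde3a to Pde3b was 19.3 to 21.95 in WT and 9.90 and 6.71 in KO.

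**Figure D5:**
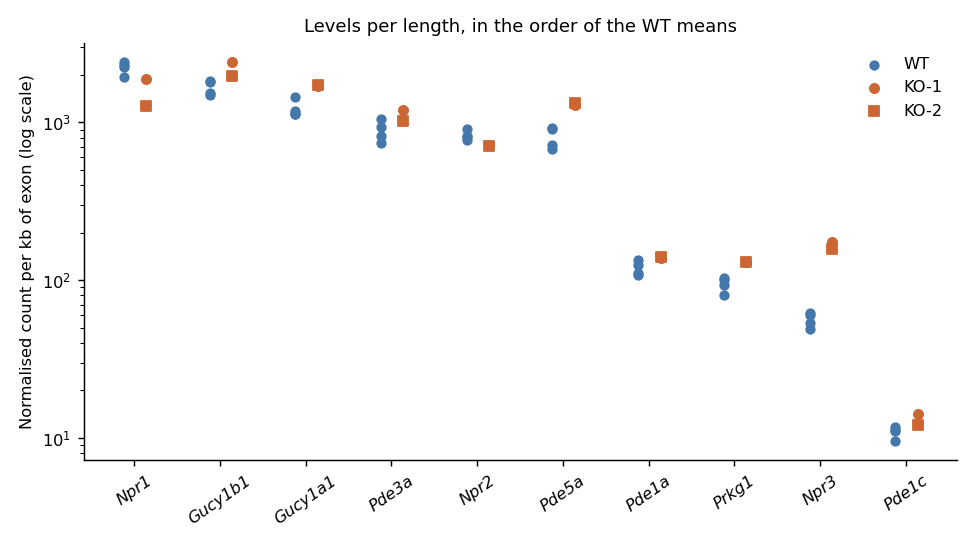
Normalised count per kilobase of exon (vertical axis, log scale) of each member in each library, in the order of the WT means. Npr1 is the most abundant member in WT and Pde1c the least, and in both KO libraries Gucy1b1 lies above Npr1.

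For the 3 members past the adjusted p, the genes with the most similar profile over the 6 libraries were found by the root mean square difference of centred log2 counts, among 11446 genes. For Gucy1a1 they were Ttc9c (0.0460), Tbc1d32 (0.0525) and Nop58 (0.0567), and the nearest member was Prkg1 (0.128). For Pde5a they were Acer3 (0.0394), Rpe (0.0435) and Rap1a (0.0506). For Npr3 they were Emp1 (0.127), Mrc1 (0.129) and Egln3 (0.151), and the nearest member was Pde5a (0.412). Mrc1 is a macrophage marker, and 7 of the 8 macrophage markers were higher at the adjusted p, with sums of 8955 to 10833 in WT and 15522 and 17786 in KO. Likeness over 6 libraries of 2 groups is a description and carries no test.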

How the data were processed

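Total RNA from thoracic aortas was sequenced as 6 bulk libraries. Reads had been aligned by the authors to GRCm38 using HISAT2, and StringTie was run on GENCODE models. The authors deposited estimated counts for each gene, already whole numbers and not scaled for depth. How they became whole numbers, and whether strand was used, is not given in the sources used here, so genes with overlapping exons may share reads. Columns carry codes, and their match to groups was inferred: the code numbered 1 to 4 was taken as WT and the one numbered 1 to 2 as KO.

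DESeq2 1.42.0 in R 4.3.3 compared KO with WT (Wald test on group, with default size factors and filtering) on the whole table. P-values were Benjamini-Hochberg adjusted over all 17070 genes with an adjusted value. Genes with an adjusted p under 0.05 and a fold above 2 were called, the study's thresholds; "rose" and "fell" refer to the adjusted p alone. The quasi-likelihood test of edgeR 4.0.16 was an alternative. Log2 changes of single libraries used a pseudocount of 0.5. Positions, exon lengths and overlaps came from GENCODE on GRCm38, which matched 52489 of 52636 identifiers, and promoters from RefSeq. Exon length was that of all annotated exons of a gene merged, whichever isoforms were expressed. The model fits were tested on simulated data.

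Members and lists were chosen with earlier results of these data known. Named were all members, each pathway gene past the adjusted p, Nos3, Prkg2, Irag1, Nppa, Nppc and Pde2a, and the 3 genes most like each member past the adjusted p among genes with a mean count of at least 100. On average over genes, counting error is small beside the spread between libraries at these depths. For genes with few reads, such as Ddah1, Prkg2, Nppa and Nppc, that was not examined. Marker sums not given in the report were 47019 to 52804 in WT and 66417 and 60760 in KO for fibroblasts, 215 to 430.4 and 849.8 and 2275 for mesothelium, 859 to 5997 and 11123 and 61826 for red blood cells, 24.0 to 70.3 and 80.4 and 359 for lymphocytes, and 286 to 457 and 581 and 446 for Schwann cells.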

Additional observations from a re-analysis of the deposited data

Results flagged for a closer look

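In 5 of 35 results checked, 1 WT library lay far from the other 3 by Dixon's criterion for 4 samples, which chance meets in about 1 of 20 groups. For Gucy1a1, WT-3 had a normalised count of 10051 against 7878 to 8189. For Nppa and Nppc, WT-4 had 21.9 and 3.13 against 0 in the others. Any count above 0 meets the criterion there, so the chance rate does not apply to these genes. For Pde2a, WT-2 had 12.6 against 1.10 to 2.996. The per-length ratio of Pde5a to Prkg1 was 7.28 in WT-1 against 8.98 to 9.18. Groups of 2 KO libraries could not be checked this way.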

How the results depend on the processing

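Each result was recomputed under 16 alternatives: edgeR with and without a low-count filter, another DESeq2 filter, TMM, total-count and smooth muscle marker scaling (the last chosen after seeing the data), removal of mitochondrial genes or of a GC trend, a test against a 2-fold change, a replicate block and each library left out. Of 160 member values, none changed direction, 146 kept their side of the adjusted p threshold, 12 lost it and 2 gained it. Against a 2-fold null, members called fell from 1 to 0, members past the adjusted p from 3 to 0, pathway genes called from 8 to 2 and pathway genes past the adjusted p from 12 to 2. With single libraries left out, these counts ran from 1 to 1, 2 to 3, 5 to 10 and 8 to 15, the low of 5 coming without WT-1. Directions turned for genes near 0 or at low counts: Mrvi1 was 0.019 with total counts, 0.033 with the GC trend removed and 0.015 with smooth muscle scaling, and with single libraries left out Mrvi1 ran from -0.065 to 0.029, Prkg2 from -1.87 to 0.032 and Pde2a from -1.94 to 0.69. The cause was not tested. Labels share the replicate numbers 1 and 2. Deviations of same-numbered libraries from their group means had r = -0.09 and 0.01. With 2 KO libraries those deviations mirror each other, so the check cannot decide whether the numbers mark pairs. With the block, members past the adjusted p were 2, pathway genes called 7 and pathway genes past the adjusted p 7, and calls over all genes went from 962 to 561. They were 633 in edgeR, 114 against a 2-fold null and 636 without KO-2. With 2 KO libraries the spread of that group is known poorly, and the intervals of Pde1a, Pde1c and Npr2 leave room for moderate changes.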
